A study of Rattus norvegicus with 18 samples.

Results

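The cytosolic ribosome is built from 2 kinds of component, ribosomal RNA and the ribosomal proteins described here, which form its small (Rps) and large (Rpl) subunit. The group was chosen by name: every probe whose gene name, or the current RefSeq symbol of its transcript, begins with Rpl or Rps and a digit, or is Rplp0, Rplp1, Rplp2 or Rpsa, without the Rps6k kinases and the names containing -ps. This gave 132 of 41012 distinct probes, for 89 genes: 31 small subunit genes, 46 large subunit genes and 12 paralogs or copies such as Rpl3l and Rpl30l3. A further 28 probes were left out: 26 with Rps6k or -ps names and 2 whose ribosomal protein name was reached only through a synonym. All 132 probes were detected in all 3 brain areas, so no member was lost to the filter on dim probes. The rule uses names, not ratios or brightness. Each gene is represented below by its brightest probe.

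The samples were brain RNA of male rats from the WHP and WLP strains, which were bred for high and low ethanol preference and had never had alcohol. WHP pools were compared with WLP pools in 3 brain areas: nucleus accumbens, hippocampus and prefrontal medial cortex. A pool held equal RNA from 3 rats, each area had 3 pool pairs, and each pool pair was measured on 2 two-colour Agilent arrays with the dyes swapped, 18 arrays in all. Age is not in the labels, nor whether the same rats gave the RNA of all areas. All values are log2 ratios of WHP over WLP on the normalized scale, so a negative value means less signal from the WHP pool, and n = 3 pool pairs for each area. The number of pool pairs limits their precision.

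Facts that touch all areas are few. The nucleus accumbens and prefrontal pools lie on slides 1 to 3 and were scanned in a first session, and the hippocampus lies on slides 4 and 5 and was scanned in a second, so the hippocampus and the scan session cannot be told apart. Of 41012 probes, 28377 were detected in all 3 areas. The dye-swapped arrays of nucleus accumbens pair 3 and hippocampus pair 2 did not correlate over these probes (r = 0.046 and -0.008), while those of the other 7 pool pairs correlated at 0.306 to 0.707. Striatal marker genes had nearly the same mean log2 brightness on the prefrontal arrays (1.98 above the array median) as on the accumbens arrays (2.14), against 0.20 on the hippocampal arrays, so the prefrontal samples carried striatal marker signal. Cortical markers were at 0.99 on the prefrontal and at -0.47 on the accumbens arrays. In bulk tissue RNA, fewer cells of a type and less RNA per cell cannot be told apart.

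Ribosomal protein mRNAs are among the most abundant messages of any cell, neurons and glia included, and their proteins are made in nearly equal amounts because each ribosome takes about the same number of each. In mammals many of these mRNAs begin with an unbroken stretch of pyrimidines, the terminal oligopyrimidine tract, through which growth signals such as mTOR control their translation together. The genes also have many intronless copies in the genome, which differ little in sequence from the parent gene and can share array signal with it.

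The sequences shown are those of array probes and of the starts of genes, and the ratios rest on the probes alone. The probes are 60 bases long and are shown 5′ to 3′ because a ratio measured by a single probe depends on what that probe can bind. Capitals in the Rplp1 probe mark the 20 bases that it shares with a probe for a locus of another name, RGD1565054.
Rpl38: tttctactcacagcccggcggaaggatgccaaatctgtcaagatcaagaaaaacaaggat
Rpl30l3: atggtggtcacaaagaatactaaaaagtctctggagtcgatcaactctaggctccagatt
Rplp1: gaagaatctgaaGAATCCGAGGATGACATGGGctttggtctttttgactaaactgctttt
Rps15: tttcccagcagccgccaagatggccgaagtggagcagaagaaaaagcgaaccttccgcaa
Rps15, second probe: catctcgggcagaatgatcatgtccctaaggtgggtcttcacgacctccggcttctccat

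In the files' rn4 coordinates the Rpl38 probe lies at chr3:158404762-158404821 on the plus strand, the Rpl30l3 probe at chr2:103321877-103321936 on the minus strand and the Rplp1 probe at chr8:66046251-66046310 on the minus strand. The first Rps15 probe spans chr7:10928409-10928778 on the minus strand and the second lies at chr7:10927645-10927704 on the plus strand, opposite to the first. Of the 89 representative probes, 6 are placed by the files on another chromosome than the one RefSeq gives for the gene. These are the probes of Rpl10a, Rpl13, Rpl32, Rpl37a, Rpl37l1 and Rpl38, and RefSeq places Rpl38 on chromosome 10, not 3. The Rpl36 probe lies on unplaced sequence. Among the member probes, 31 probes of 22 genes share at least 20 bases in the same orientation with a probe of another name. The Rpl38 probe shares 20 bases with 0 other probes of the array in either orientation.

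The starts of 71 of the 89 genes were in the RefSeq promoter table (GRCr8 build). The 60 bases around 4 of them are shown, from 40 bases before the annotated start to 20 bases from it on, with capitals for the unbroken run of C and T that holds the annotated start or, for Rpl38, ends on the base before it.
Rpl38: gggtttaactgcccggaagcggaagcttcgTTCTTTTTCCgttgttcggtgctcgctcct
Rplp0: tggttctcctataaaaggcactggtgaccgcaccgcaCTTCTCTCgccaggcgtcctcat
Rplp1: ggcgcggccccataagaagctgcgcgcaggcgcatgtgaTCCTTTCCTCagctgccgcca
Rps3a: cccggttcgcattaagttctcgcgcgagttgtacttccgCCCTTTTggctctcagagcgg

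They lie at chr10:100200395-100200454 (plus strand), chr12:46718371-46718430, chr8:71290853-71290912 and chr2:173827023-173827082 (minus strand). A run of at least 7 pyrimidines that held the annotated start was present in 36 of the 71 members' promoters (50.7%), against 5.83% of the other 27386 promoters of the table. Counting also runs that end on the base before the start, as in Rpl38, the share was 54.9% of the members and 6.96% of the others. The search was for C and T on the gene's own strand only, and a match describes these letters and no control of the gene.

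Rpl38 was the only one of the 89 genes that passed the test, and it was lower in WHP in every area. Rpl38 is a small protein of the large subunit, whose loss in mice alters the patterning of the axial skeleton. Its ratio was -0.38, -0.43 and -0.33 in the 3 pool pairs of the nucleus accumbens, -0.47, -0.49 and -0.42 in the prefrontal medial cortex and -0.33, -0.34 and -0.28 in the hippocampus. All 9 pool pairs lay below 0, in a narrower range than for most members (SD 0.071 over the 9 pairs, against a median SD of 0.111 over the members).

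The log2 brightness of Rpl38 was 14.86, 14.95 and 15.05 in the WHP pools of the nucleus accumbens, against 15.24, 15.38 and 15.38 in the WLP pools. In the prefrontal medial cortex it was 14.86, 14.86 and 14.79 in WHP, against 15.33, 15.36 and 15.21 in WLP. In the hippocampus it was 16.22, 16.23 and 16.12 in WHP, against 16.56, 16.58 and 16.40 in WLP. Strains did not overlap within any area, and the probe was far above background and on no array saturated.

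The fitted ratio was -0.38 ± 0.036 (SE) in the nucleus accumbens (adjusted p = 0.0116), or 1.30-fold lower in WHP. It was -0.46 ± 0.036 in the prefrontal medial cortex (adjusted p = 0.0059), or 1.38-fold lower, and -0.32 ± 0.036 in the hippocampus (adjusted p = 0.0150), or 1.25-fold lower. These are limma's tests with Benjamini-Hochberg adjustment over all detected probes, at a threshold of 0.05. Rpl38 was thus 1 of 89 members called in each area, where the same test called 0.252% of all detected probes in the nucleus accumbens, 0.0905% in the prefrontal medial cortex and 0.250% in the hippocampus. In the mean of the 3 areas Rpl38 was at -0.39 ± 0.021 (adjusted p = 0.000113), again the only member, with 2.85% of all probes called. The difference of its ratio between areas did not pass in any of the 3 comparisons, the largest being 0.14 ± 0.051 for hippocampus minus prefrontal medial cortex (limma, unadjusted p = 0.0220, adjusted p = 0.997).

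On single arrays the ratio of Rpl38 was negative 18 times of 18. With WHP in Cy3 the hippocampal arrays gave -0.49, -0.46 and -0.49, and with WHP in Cy5 they gave -0.18, -0.23 and -0.07. The 2 dye orientations did not overlap there, so the size in the hippocampus rests on their mean. The call itself was lost in part of the alternatives: it held in 13 of 23 in the nucleus accumbens (adjusted p from 0.00997 to 0.66), 14 of 23 in the prefrontal medial cortex (0.00498 to 0.926), 10 of 21 in the hippocampus (0.0129 to 0.814) and 18 of 20 in the mean (0.000107 to 0.156). The sign was negative in all of them, and the ratio ranged from -0.41 to -0.17 in the nucleus accumbens, -0.51 to -0.40 in the prefrontal medial cortex and -0.53 to -0.16 in the hippocampus. The smallest accumbens ratio and the largest hippocampal one came from median centring, and the smallest hippocampal one from WHP in Cy5 alone. Leaving out any 1 of the 3 hippocampal pool pairs ended the hippocampal call (adjusted p 0.137 without pair 1, 0.162 without pair 2, 0.101 without pair 3), and leaving out prefrontal pair 2 or pair 3 ended the prefrontal one (0.076 and 0.0818). Only 1 probe measures the gene, so no second probe repeats the value, and the probe's position on another chromosome than the RefSeq gene applies to every value above.

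**Figure D1:**
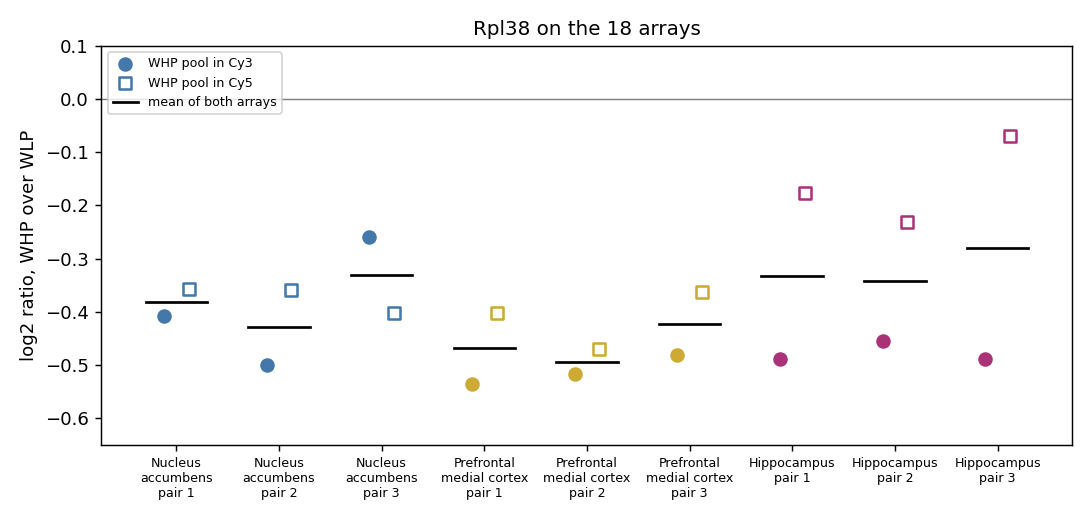
Log2 ratio of WHP over WLP for Rpl38 (y axis) on each of the 18 arrays, by brain area and pool pair (x axis). Circles are arrays with the WHP pool in Cy3, squares those with WHP in Cy5, and lines the means of both. All 18 arrays lie below 0, and the hippocampal squares (-0.18, -0.23 and -0.07) lie above the circles.

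Taken as a group, the ribosomal protein genes lay slightly higher in WHP in the hippocampus and near or slightly below 0 in the other areas. The median over the 89 genes was 0.080, 0.071 and 0.118 in hippocampal pairs 1 to 3. It was -0.024, -0.045 and -0.0995 in the nucleus accumbens, and -0.124, 0.028 and -0.005 in the prefrontal medial cortex. The 3 hippocampal pairs were above all 6 others, and the prefrontal pairs disagreed in sign, with pair 1 apart from the others. Means of the pair medians were 0.089 ± 0.025 (SD) in the hippocampus, -0.056 ± 0.039 in the nucleus accumbens and -0.034 ± 0.080 in the prefrontal medial cortex.

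**Figure D2:**
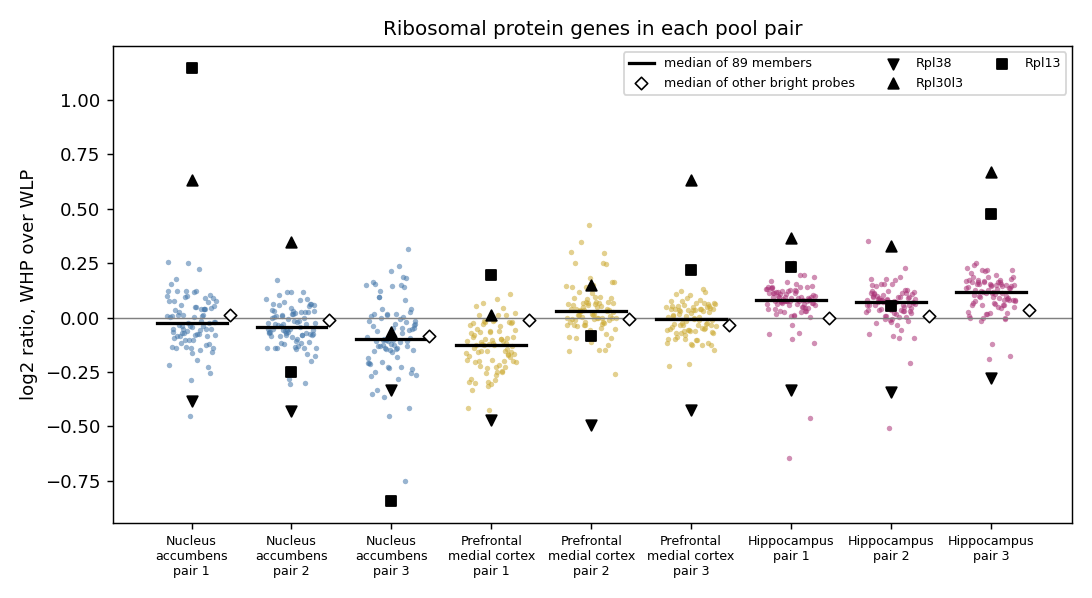
Log2 ratio of WHP over WLP (y axis) of the 89 genes in each pool pair (x axis). Dots are genes, lines the group medians, and diamonds the medians of the 275 probes outside the group with a log2 brightness over 15. The group medians of the hippocampus (0.080, 0.071 and 0.118) lie above those of the other 6 pairs, Rpl38 lies low in every pair, and Rpl13 ranges from 1.15 to -0.84 within the nucleus accumbens.

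In the hippocampus 82 of the 89 genes had a ratio above 0, against 48.1% of all detected probes, and 69 had one above 0 in 3 of 3 pool pairs, against 17.2%. In the nucleus accumbens 31 genes were above 0 (all probes 50.4%), 7 of them in 3 of 3 pairs (14.2%). In the prefrontal medial cortex 26 were above 0 (50.8%), 6 of them in 3 of 3 (14.3%). The medians of the small and large subunit genes were alike, at 0.10 and 0.087 for the hippocampus, -0.043 and -0.048 for the nucleus accumbens, and -0.036 and -0.034 for the prefrontal medial cortex. Every one of the 31 small subunit genes and 43 of 46 large subunit genes were above 0 in the hippocampus. The 12 paralogs and copies lay lower there, at 0.049, with 8 above 0. Apart from Rpl38, no single member passed in any area. At an unadjusted p under 0.05 in limma, 21 members (23.6%) were counted in the hippocampus, against 6.68% of all probes in either direction. Of these 21, 18 were higher in WHP. In the nucleus accumbens the count was 15 (16.9%, all probes 16.3%), 14 of them lower. In the prefrontal medial cortex it was 6 (6.74%, all probes 8.45%), all lower. The accumbens and prefrontal shares were thus near those of all probes.

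The tests of the difference between areas called 0 of 89 members and 0.00% of all detected probes in each of the 3 comparisons. At an unadjusted p under 0.05 in limma, 29 members (32.6%) differed between the hippocampus and the nucleus accumbens, against 8.63% of all probes in either direction. Of these 29, 28 had the higher ratio in the hippocampus. For the hippocampus against the prefrontal medial cortex there were 22 (24.7%, all probes 3.60%), 21 of them higher in the hippocampus. For the prefrontal medial cortex against the nucleus accumbens there were 5 (5.62%, all probes 3.33%). The median over members of the difference was 0.136 for hippocampus minus nucleus accumbens and 0.135 for hippocampus minus prefrontal medial cortex. Members rise and fall together, so these counts do not add up independent evidence.

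The direction of the group median depended on how brightness was handled. Of the 89 genes, 48 had a log2 brightness above 15, where only 275 other probes lay, and 80 were above the 90th percentile of detected probes. With median centring in place of loess, the group median became 0.148 in the nucleus accumbens, 0.025 in the prefrontal medial cortex and -0.124 in the hippocampus, each the opposite sign. In the hippocampus this rested mainly on pair 3, as the medians of pairs 1 to 3 were -0.0007, 0.0348 and -0.3794. The prefrontal pairs disagreed in sign, at -0.3681, 0.1098 and 0.3117, and the accumbens pairs were all above 0. The other bright probes moved with the members: under median centring their median was -0.094, -0.033 and -0.480 in the 3 hippocampal pairs, and 0.173, 0.077 and 0.283 in the 3 accumbens pairs. Set against the 100 detected probes outside the group that were nearest in brightness, an alternative chosen after seeing the data, the group median in the hippocampus was 0.081, 0.068 and 0.088 by pair with loess and 0.080, 0.068 and 0.088 with median centring. In both settings 82 of 89 genes were higher than those probes. In the nucleus accumbens the same comparison gave -0.047, -0.032 and -0.039 with loess, and -0.040, -0.030 and -0.030 with median centring. In prefrontal pairs 1 to 3 it gave -0.135, 0.029 and 0.015 with loess, and -0.132, 0.032 and 0.017 with median centring. Against the nearest 1000 probes, with loess, the medians were 0.084, 0.070 and 0.105 for the hippocampal pairs, -0.033, -0.047 and -0.072 for the accumbens pairs, and -0.126, 0.027 and 0.0004 for the prefrontal pairs. The sign was that of the nearest 100 in each pair, and the size in accumbens pair 3 and prefrontal pair 3 depended on how many probes were taken. Relative to the nearest 100 probes the medians differed little between the normalizations, and relative to 0 the area medians changed sign. The probes outside the group still include some that share bases with members, such as RGD1565054 (log2 brightness 16.22) and Rpl37a-ps1 (16.40). The bright and nearest sets may therefore hold part of the group's own signal.

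**Figure D3:**
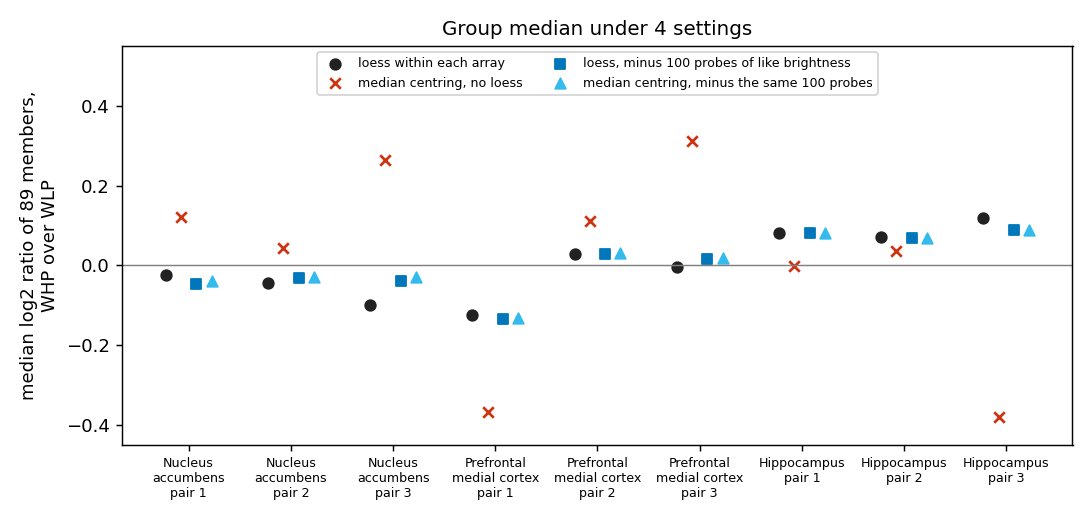
Median log2 ratio of WHP over WLP over the 89 genes (y axis) in each pool pair (x axis), under 4 settings. Black circles (loess) and red crosses (median centring) differ most in hippocampal pair 3, at 0.118 and -0.379. Both kinds of blue symbol, each relative to the 100 probes nearest in brightness, lie close together in every pair.

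The dye orientation also moved the size. On the 3 hippocampal arrays with WHP in Cy3 the group median was 0.028, 0.004 and 0.022, and on those with WHP in Cy5 it was 0.131, 0.107 and 0.203, all 6 above 0. The other bright probes had medians of -0.109, -0.127 and -0.099 with WHP in Cy3 and 0.115, 0.186 and 0.167 with WHP in Cy5. Within arrays the members' differences from one another were largely not repeated: the correlation across the 89 genes between the 2 dye-swapped arrays was between -0.369 and 0.370 in the 9 pool pairs, genes not being independent replicates.

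Markers of other cell types also had ratios away from 0 in these pools. All 12 oligodendrocyte markers had a ratio above 0 in the hippocampus, with a range from 0.039 to 0.69 and list medians of 0.367, 0.396 and 0.118 in the 3 pairs. All 10 meningeal and fibroblast markers were above 0 (0.094 to 1.25), as were all 7 measured ependymal and choroid plexus markers (0.25 to 1.47), while 9 of 11 neuron markers and 9 of 10 striatal markers (median -0.52) were below 0. By hippocampal pair the striatal median was 0.056, -0.97 and -0.57, and the meningeal median was 0.85, -0.021 and 0.29, so 1 pair differed in sign for each. In the nucleus accumbens all 10 meningeal markers were above 0 in the fit (median 0.90), and 10 of 12 oligodendrocyte markers (median -0.18) and 9 of 10 striatal markers (median -0.39) were below 0. The accumbens pairs disagreed: the meningeal median was 1.22, 2.50 and -0.98, with 10, 10 and 1 of the 10 markers above 0. The striatal median was -0.24, -0.85 and 0.013. In the prefrontal pairs the oligodendrocyte median was -0.717, 0.456 and 0.327, beside medians of -0.124, 0.028 and -0.005 for the ribosomal protein genes. In the accumbens pairs it was -0.47, 0.22 and -0.37, beside -0.0245, -0.045 and -0.0995. Within the hippocampus, pair 3 had the highest ribosomal protein median (0.118) and the lowest oligodendrocyte median (0.118). None of these markers passed the test in these areas, and their part in the ratios of the ribosomal protein genes was not tested.

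The stalk of the large subunit, which recruits elongation factors, holds Rplp0, Rplp1 and Rplp2, and was listed together with Rpl12 at its base. All 4 had fitted ratios above 0 in the hippocampus (0.056 to 0.172) and below 0 in the prefrontal medial cortex (-0.117 to -0.030). The prefrontal pairs disagreed, with list medians of -0.1985, 0.0486 and 0.0030 and 0, 3 and 3 of the 4 genes above 0. Only Rplp1 was below 0 in all 3 prefrontal pairs. Rplp1, the brightest of all members at a log2 brightness of 17.15, had -0.10, -0.28 and -0.45 in the nucleus accumbens, -0.12, -0.087 and -0.056 in the prefrontal medial cortex and 0.056, 0.053 and 0.188 in the hippocampus. The accumbens and hippocampal pairs did not overlap. Its ratio was -0.28 ± 0.063 (SE) in the nucleus accumbens (limma, adjusted p = 0.12), which did not pass. On arrays with WHP in Cy3 its ratio was negative on all 9, and in the hippocampus it was -0.25, -0.25 and -0.18 there against 0.36, 0.36 and 0.56 with WHP in Cy5, so the hippocampal value is the mean of opposite signs. The probe RGD1565054, which shares the capitalized bases above, had -0.25, -0.08 and 0.09 in the 3 areas beside -0.28, -0.09 and 0.10 for Rplp1.

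Rpl5 and Rpl11, which bind 5S ribosomal RNA and, when unassembled, the p53 regulator Mdm2, were both above 0 in all 3 hippocampal pairs. Rpl11 had 0.117, 0.071 and 0.162 there and was above 0 in all 9 pool pairs (SD 0.051 over pairs). Rpl5 had 0.138, 0.148 and 0.058 in the hippocampus and was below 0 in all 3 accumbens pairs. The 8 proteins around the exit tunnel of the nascent chain ranged from -0.170 to 0.031 in the nucleus accumbens, from -0.156 to 0.074 in the prefrontal medial cortex and from -0.054 to 0.154 in the hippocampus, where the probe named Rpl37 was the only one below 0. That probe is dim (log2 brightness 8.37) and was named by the file's symbol, and the files place it on chromosome 2, minus strand. A bright probe (16.89) that the files also call Rpl37 lies beside it on the plus strand. RefSeq now gives that probe's accession to Rpl37l1 on chromosome 10, and it is counted so here, at -0.19 in the nucleus accumbens, -0.060 in the prefrontal medial cortex and 0.11 in the hippocampus. Which of these probes reads the Rpl37 mRNA was not tested.

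Of the ribosomal protein genes used as reference genes in quantitative PCR, 7 were listed (Rplp0, Rpl13a, Rpl19, Rpl27, Rpl32, Rps18 and Rps29). None passed the test in any area. At an unadjusted p under 0.05 in limma, 4 of them differed in 1 area each, where 16.3% of all probes did in the nucleus accumbens, 8.45% in the prefrontal medial cortex and 6.68% in the hippocampus. Rps29 was at -0.18 ± 0.066 (SE) in the nucleus accumbens (limma, adjusted p = 0.242), and Rps18 at 0.10 ± 0.041 in the hippocampus (adjusted p = 0.679). In the prefrontal medial cortex Rpl32 was at -0.20 ± 0.053 (limma, adjusted p = 0.324) and Rpl13a at -0.18 ± 0.056 (adjusted p = 0.419). Rpl32 was at -0.22, -0.073 and -0.015 in the nucleus accumbens, -0.30, -0.091 and -0.22 in the prefrontal medial cortex and -0.074, -0.075 and 0.007 in the hippocampus, so 8 of 9 pairs lay below 0. Rplp0 varied most among these, from -0.41 in prefrontal pair 1 to 0.35 in hippocampal pair 2. Rps18 stayed between -0.12 and 0.14. A p that misses the threshold does not show that a reference gene is equal between strains.

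At the upper end of the group stood Rpl30l3, a copy named after Rpl30. It had 0.63, 0.35 and -0.066 in the nucleus accumbens, 0.014, 0.15 and 0.63 in the prefrontal medial cortex and 0.36, 0.33 and 0.67 in the hippocampus. It lay above the median of the other members in 9 of 9 pool pairs and was the highest member in each area's fit. The fitted ratios were 0.30, 0.27 and 0.45 ± 0.15 (SE), none past the test (limma, adjusted p = 0.348, 0.694 and 0.516). Pool pairs differed widely and the dye-swapped arrays of a pair lay closer together, such as 0.55 and 0.71 in accumbens pair 1 and 0.62 and 0.64 in prefrontal pair 3. In the mean of the 3 areas it was at 0.34 ± 0.085 (limma, adjusted p = 0.0813).

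Other members went against the group. In the hippocampus, where the median was above 0, 3 members were below 0 in 3 of 3 pairs, where 20.8% of all detected probes were: Rpl38, Rpl39l1 and Rpl3l. Rpl39l1 had -0.64, -0.51 and -0.19 there, and in the nucleus accumbens -0.45, -0.31 and -0.23, from a dim probe (log2 brightness 7.30). Prefrontal pair 2 was its exception, at 0.42. Rpl3l, the striated muscle paralog of Rpl3, had -0.46, -0.21 and -0.18 in the hippocampus and lay between -0.094 and 0.106 elsewhere, also from a dim probe (7.89). Neither passed the test (limma, adjusted p = 0.524 for Rpl39l1 and 0.218 for Rpl3l in the hippocampus).

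In the nucleus accumbens, where the median was below 0, 7 members were above 0 in 3 of 3 pairs (14.2% of all detected probes were). The largest by ratio were Rpl10l1 (0.14), Rpl10 (0.082), Rps25 (0.065), Rpl11 (0.060), Rpl24 (0.048) and Rpl17 (0.031). In the prefrontal medial cortex 6 were (14.3% of all probes): Rpl30l3 (0.27), Rpl7l1 (0.12), Rpl8 (0.066), Rpl15 (0.063), Rpl3l (0.053) and Rpl11 (0.020). Rpl22l1, the paralog of Rpl22, was the second highest in the nucleus accumbens at 0.15 with values of 0.22, -0.016 and 0.24. Rpl13a followed Rpl38 and Rpl32 at the lower end in the prefrontal medial cortex, at -0.18, and Rpl4 was among the highest there at 0.12.

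Among the highest members of the hippocampus, Rps3a had 0.20, 0.18 and 0.17, with a fitted ratio of 0.18 ± 0.042 (limma, adjusted p = 0.23). Rpl8, a protein near the catalytic centre, lay above the median of the other members in all 9 pairs and had 0.12, 0.14 and 0.25 in the hippocampus. Rps6, the small subunit protein that S6 kinases phosphorylate, had 0.15, 0.11 and 0.22.

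Rpl13 was the most variable member, with 1.15, -0.25 and -0.84 in the 3 accumbens pairs and an SD of 0.538 over all 9. Its second probe gave 0.11, -0.20 and -0.22 in the same pairs, so the probes ordered the pairs alike but differed in size. Rps15 was second lowest in the nucleus accumbens, at 0.038, -0.30 and -0.75 (fitted -0.34 ± 0.12, limma, adjusted p = 0.248). The dye-swapped arrays behind these values differed widely. Pair 2 gave 0.030 with WHP in Cy3 and -0.63 in Cy5. Pair 3, whose arrays did not correlate over all probes, gave -1.30 and -0.19. The second Rps15 probe, which lies on the opposite strand, gave 0.10, -0.27 and -0.31. Likewise the second probe of Rps25 is the reverse complement of the first over all 60 bases and was dimmer, with a log2 brightness of 10.04 against 14.42.

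Where a gene had several probes they mostly pointed the same way. Among the 32 such genes all probes shared a sign in 30 genes for the hippocampus, 22 for the prefrontal medial cortex and 21 for the nucleus accumbens, and the median spread between a gene's probes was 0.019, 0.032 and 0.044. The largest spread was 0.19, for Rpl13 in the hippocampus. Of all 132 member probes 122 were above 0 in the hippocampus, while 97 were below 0 in the prefrontal medial cortex and 90 in the nucleus accumbens. Probes of different member genes would therefore often share a sign too. The 32 genes include Rps15 and Rps25, whose 2 probes lie on opposite strands. Rpl21 had 7 probes, all below 0 in the nucleus accumbens (-0.26 to -0.16) and all above 0 in the hippocampus (0.012 to 0.076). Of these, 2 were dim (log2 brightness 8.666 and 8.505) and are placed by the files on chromosome 4, while RefSeq gives chromosome 12. The first of the 2 shares bases with probes of other names in the opposite orientation only, so whether it reads the Rpl21 mRNA is not known. In addition 8 probes of other names share at least 20 bases with Rpl21 probes in the same orientation, and all 8 were below 0 in the nucleus accumbens. Over the 39 distinct probes of other names that share bases in the same orientation with any member probe, the median was -0.090 in the nucleus accumbens, -0.046 in the prefrontal medial cortex and 0.064 in the hippocampus, where 37 of 39 were above 0. These probes may read the same RNA as the members and are no independent set.

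The members varied together over pool pairs. Subtracting from each gene the median of the other members left a smaller SD over the 9 pairs in 71 of 89 genes (79.8%), and the median SD became 0.081 in place of 0.111. The same subtraction made the SD smaller in 26.0% of the 28245 other detected probes and in 42.5% of the 275 other bright ones. Within areas, after removing each area's mean, it did so in 65 of 89 members (73.0%), against 34.4% of the other probes and 41.5% of the bright ones. These shares are descriptions over pairs that share slides and arrays.

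Members that followed the group most closely were Rps19, whose SD was 0.036 after the subtraction and 0.110 before it, Rpl22 (0.036 and 0.108) and Rps20 (0.030 and 0.082). Of the 12 paralogs and copies, 8 became more variable, among them Rpl15l2, Rps12l4, Rpl22l1 and Rpl3l. Of the 77 core subunit genes 10 did so, such as Rpl38, Rpl11 and Rpl37, the last read only from the dim probe described above. Rpl38 had nearly the same SD before and after (0.071 and 0.076), and lay below the group in every pair by 0.23 to 0.52.

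**Figure D4:**
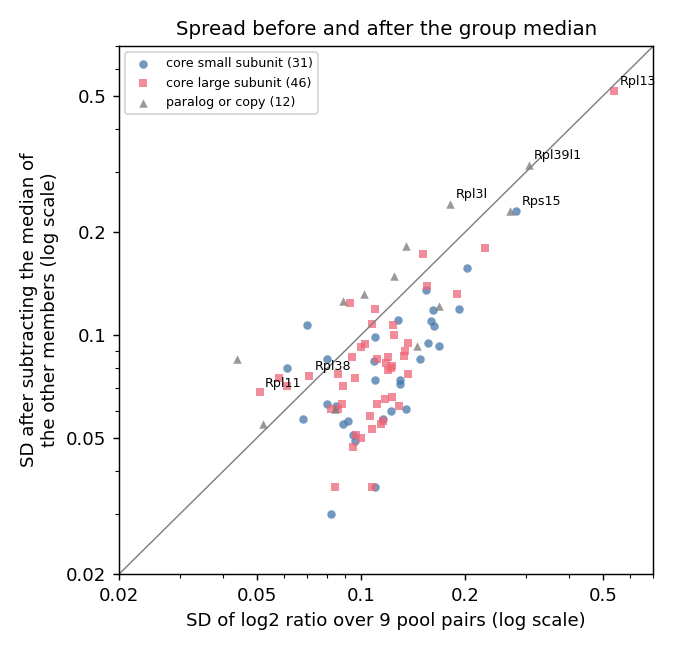
SD of the log2 ratio over the 9 pool pairs (x axis, log scale) and the SD after subtracting the median of the other members (y axis, log scale), 1 symbol per gene. Points below the line vary less after the subtraction, 71 of 89. Rpl13 lies at the upper end, and Rpl3l and Rpl39l1 lie above the line.

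Fau and Rack1 are ribosomal components whose names the rule does not take. Fau, which carries the ribosomal protein S30 fused to a ubiquitin-like protein, had 0.053, 0.087 and 0.109 in the hippocampus. Rack1, a scaffold on the small subunit, ranged from -0.33 to 0.16 over the 9 pool pairs. Both genes had fitted ratios below 0 in the nucleus accumbens and the prefrontal medial cortex, and above 0 in the hippocampus. Neither passed in any area (limma, adjusted p from 0.488 to 0.907 for Fau and from 0.735 to 1.00 for Rack1).

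The 12 elongation factor genes had medians of -0.048, -0.045 and 0.002 in the nucleus accumbens, prefrontal medial cortex and hippocampus, with 0 called, and the 38 initiation factor genes had 0.067, 0.033 and 0.009. Eif4e3, a member of the cap-binding eIF4E family, was the only initiation factor gene called, at 0.32 ± 0.046 in the hippocampus (limma, adjusted p = 0.0394) and 0.25 ± 0.026 in the mean (adjusted p = 0.00281). It was above 0 in all 9 pool pairs, from 0.074 to 0.381. In the mean this is 1 of 38 genes, where 2.85% of all probes were called. The 20 other genes listed for terminal oligopyrimidine mRNAs had a median of 0.047 in the hippocampus, 17 of 20 above 0, beside 0.013 and -0.021 in the nucleus accumbens and prefrontal medial cortex, with 0 called. By hippocampal pair their median was 0.0486, 0.0534 and -0.0029, with 17, 14 and 10 of 20 above 0. The 39 measured ribosome assembly factor genes had a median of -0.018 in the hippocampus (13 of 39 above 0), beside accumbens and prefrontal medians of 0.032 and 0.045. The pairs disagreed in sign in the hippocampus (-0.0018, 0.0173 and -0.0249) and in the nucleus accumbens (0.0416, -0.0341 and 0.0899). Of these 39 genes 1 passed in the mean: Gar1, a protein of the particles that modify ribosomal RNA (0.24 ± 0.041, limma, adjusted p = 0.0223). That is 1 of 39, again beside 2.85% of all probes. The 16 measured genes of growth signalling to translation, such as the mTOR pathway, had medians of 0.031, 0.012 and -0.025, with 0 called.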

How the data were processed

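Mean foreground and median local background intensity of each spot, in green (Cy3) and red (Cy5), were deposited as scanner output of Agilent Feature Extraction, per the file headers, neither background-corrected nor dye-normalized. The same files hold a processed intensity, which per the file headers had background removed and dyes normalized. The flags in those files mark spots above background, saturated or non-uniform. In the deposited value table each probe has a log2 ratio for every array. Set against the scanner's ratios, it ran as WHP over WLP on each of the 18 arrays (r from 0.660 to 0.989). Column medians were -0.011 to 0.021, and how it was normalized is not given in the sources used here.

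The background was corrected by normexp (offset 50) in limma 3.58.1, run in R 4.3.3, followed by loess within each array, with control spots at weight 0. Ratios were turned to WHP over WLP, spots of a probe were averaged, and both arrays of a pool pair were averaged. Detection in an area required a signal well above background in 1 strain's channel on at least 4 of 6 arrays. lmFit and eBayes took the 9 ratios, with a coefficient for each area (6 residual and 2.46 prior degrees of freedom), two-sided, with Benjamini-Hochberg adjustment over all detected probes, which is the adjusted p of every limma test given. The offset pulls ratios of dim probes towards 0. A probe that differs in sequence between strains would also change its ratio, which the arrays cannot show.

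Probes were named through RefSeq's gene table: 17541 by their own accession, 404 by a further accession, 2871 by a current symbol and 521 by a synonym, while 19675 stayed unnamed. Positions are those of the files (rn4), and promoters are from RefSeq (GRCr8). The members, the gene lists and the rule for named genes were chosen with earlier results of these data known. The rule names every member past a test, the 3 highest and 3 lowest of each area, up to 6 members against the group in 3 of 3 pairs, genes whose probes differ by over 0.3, the role lists by range and examples, and up to 4 passing genes of other lists; Rpl21, Rpl8 in the hippocampus, Rps6, the examples of co-variation and the second probes were added after their values were seen. The fit was tested on simulated data. The fit held no replicate block, and same-numbered pool pairs of different areas did not all deviate together (r from -0.381 to 0.166). These correlations compare different tissues, so they cannot tell whether such pairs came from the same rats. Some single-gene values are not reported here.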

Additional observations from a re-analysis of the deposited data

Results flagged for a closer look

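The median ratio of the ribosomal protein genes stood out between areas: it was higher in the hippocampus than in the nucleus accumbens by 0.146 (means of the pair medians 0.089 and -0.056), with all 3 hippocampal pairs above 0 and all 3 accumbens pairs below 0. The difference of this median was not tested, and no single member passed the test of the difference between these areas. Under median centring without loess the hippocampal median was -0.124 and the accumbens median 0.148, the opposite order. In that setting hippocampal pair 3 was at -0.3794, and pairs 1 and 2 were at -0.0007 and 0.0348. Relative to the 100 probes nearest in brightness the hippocampal and accumbens medians were 0.078 and -0.029 in that setting. The scan session and the hippocampus cannot be told apart.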

How the results depend on the processing

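Rpl38 was the member called in each area and in the mean, and the count of 1 changed as follows. It was 0 in the nucleus accumbens, the hippocampus and the prefrontal medial cortex under median centring without loess, with each area fitted alone, with trend and robust variances, and with the pool pair number as a replicate block. It was 0 in the nucleus accumbens and the hippocampus with the deposited value table, with processed signals of the scanner, and on leaving out the pool pairs whose dye-swapped arrays do not correlate. It was 0 in the nucleus accumbens and the prefrontal medial cortex in the first scan session alone, also with slide as a block, and 0 in the prefrontal medial cortex with WHP in Cy3 alone. In the mean it was 0 under median centring without loess and with trend and robust variances. With a single dye orientation, where dye and strain effects cannot be told apart, the hippocampal count was 2 with WHP in Cy3 and 7 with WHP in Cy5, and the count in the mean was 14 and 15. Leaving out 1 replicate at a time gave 1 to 2 in the nucleus accumbens (2 without pair 1, where Rplp1 passed), 0 to 1 in the prefrontal medial cortex, 0 to 1 in the hippocampus and 1 to 2 in the mean (2 without prefrontal pair 2, where Rpl39l1 passed). With the replicate block the adjusted p of Rpl38 was 0.0592 in the nucleus accumbens, 0.0523 in the prefrontal medial cortex and 0.0674 in the hippocampus, and no other call of a member changed. With WHP in Cy3 alone the accumbens count stayed 1, but the gene was Rpl35. The group median moved beyond its spread between pairs to 0.148 in the nucleus accumbens and -0.124 in the hippocampus under median centring without loess, and to 0.134 and 0.023 in the hippocampus with WHP in Cy5 and in Cy3 alone. Leaving out 1 replicate gave -0.062 to -0.020 in the nucleus accumbens, -0.071 to 0.013 in the prefrontal medial cortex (0.013 without pair 1) and 0.080 to 0.098 in the hippocampus. Among named members below the threshold, the sign turned for Rpl32 (0.112 in the nucleus accumbens under median centring, 0.037 in the hippocampus with WHP in Cy5), Rplp1 in the hippocampus (-0.229 with WHP in Cy3, -0.129 under median centring) and in the mean (0.118 with WHP in Cy5), Rps15 in the hippocampus (-0.024 with WHP in Cy3, -0.078 under median centring) and Rpl39l1 in the prefrontal medial cortex (0.007 with WHP in Cy3, and -0.317 to 0.105 when leaving out 1 replicate, with 0.000 without pair 3). The cause was not tested. No spot was saturated, so leaving out saturated spots changed nothing and was not run.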
